A study of Mus musculus with 26 samples.

Results

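The genes described here build the modified uridine at the wobble position of several tRNAs. They comprise 5 subunits of Elongator (Elp2, Elp3, Elp4, Elp5 and Elp6), the Elongator regulator Kti12, the sulfur carrier Urm1, both subunits of the cytosolic tRNA thiolase (Ctu1 and Ctu2) and the methyltransferase Alkbh8. They were chosen by gene symbol, and 10 of the 10104 transcripts in the deposited tables matched, 1 per gene. Of these, 9 were listed for both cell types and Ctu1 was listed for oligodendrocytes only.

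The cells were mouse oligodendrocyte progenitor cells (OPCs), derived from epiblast stem cells of the 129S/SvEv strain and grown with bFGF and PDGFA. Oligodendrocytes (OLs) were differentiated from such OPCs in culture with T3, noggin, IGF-1, cyclic AMP and NT3, so neither cell type was taken from brain. All cells took up 5-ethynyluridine, a uridine analogue to which biotin can be coupled, before plain uridine took its place in a chase. Labelled RNA was pulled down and sequenced at 0, 1, 2, 4 and 6 h of chase in 3 OPC replicates and 2 OL replicates, which gave 25 libraries. An OPC control without biotin was not analysed here, so no background was subtracted.

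Elongator places a side chain on the wobble uridine of tRNAs, and Elp3 is its catalytic subunit. Elp2 belongs to the core of the complex, whereas Elp4, Elp5 and Elp6 form an accessory ring. Alkbh8 adds the terminal methyl group of that side chain. In a separate branch, Urm1 is activated as a thiocarboxylate and its sulfur is passed to the same uridine by Ctu1 and Ctu2. The complete mark, mcm5s2U, is found in tRNAs that read the A-ending codons of lysine (AAA), glutamate (GAA) and glutamine (CAA) and the arginine codon AGA. The study asked how tRNA modification and codon-dependent mRNA stability differ between OPCs and OLs, and its decay data are used here to describe the mRNAs of the modifying enzymes themselves.

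Sequences are shown for the feature that lets Urm1 carry sulfur and for the range of mcm5s2U-dependent codons among the members. Urm1 is a small ubiquitin-like protein that ends in a pair of glycines. Its transcript, ENSMUST00000091142, lies at chr2:29827342-29845002 of GRCm38 on the forward strand, and the last 20 codons of its reading frame, stop included, lie at chr2:29843112-29843171 in the last of 5 exons, with the pair of glycine codons in capitals.
Urm1, end of the coding sequence: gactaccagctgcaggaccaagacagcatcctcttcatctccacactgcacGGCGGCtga

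The members differ in how often they use the codons that mcm5s2U tRNAs read. Over 10089 transcripts with a usable coding sequence, the median share of AAA, GAA, CAA and AGA among all codons was 6.94%. The share was lowest in Ctu1, with 6 such codons of 420 (1.43%, percentile 1.60), followed by Kti12 (2.85%) and Ctu2 (3.50%). It was highest in Alkbh8, with 92 of 664 codons (13.9%, percentile 92.8), followed by Elp5 (9.0%). Alkbh8 also had the lowest share of G or C at the third codon position, 41.1% against a median of 60.6%, and Ctu1 and Kti12 had high ones, 72.9% and 74.1%. Elp2 had a low share of G or C there (50.9%) together with a codon share below the median (5.94%). The following windows of 20 codons are the densest of Alkbh8 (chr9:3338475-3338534, forward strand), Elp5 (chr11:69968540-69969154, reverse strand, with an intron inside the interval) and Ctu1 (chr7:43676927-43676986, forward strand), with the AAA, GAA, CAA and AGA codons in capitals.
Alkbh8, codons 5 to 24: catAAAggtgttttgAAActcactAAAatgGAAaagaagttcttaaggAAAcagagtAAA
Elp5, codons 244 to 263: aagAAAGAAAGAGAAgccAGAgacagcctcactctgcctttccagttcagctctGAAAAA
Ctu1, codons 337 to 356: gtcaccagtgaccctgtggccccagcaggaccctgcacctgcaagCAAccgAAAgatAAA
The Elp5 window holds 7 of these codons, the Alkbh8 window 6 and the Ctu1 window 3.

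The identity of the cultures was read from marker genes at 0 h. The summed level of 5 OL markers (Mbp, Cnp, Mag, Mog and Mobp) was 5197 and 2332 FPKM in OLs and 37.6 to 55.1 FPKM in OPCs, where only Mbp and Cnp were listed. FPKM is fragments per kilobase of transcript, scaled to the mapped fragments, so it can be compared between genes. The summed level of the OPC markers Pdgfra, Cspg4 and Ptprz1 was 179.9 to 301.8 FPKM in OPCs and 201.1 and 206.8 in OLs, which overlap. Of these 3, Pdgfra went against its label, with 26.5, 11.5 and 13.3 FPKM in OPC replicates 1 to 3 and 66.9 and 43.9 in OLs (log2 difference 1.70 ± 0.35, SE, adjusted p = 0.00591). Of 3 astrocyte markers, Gfap was listed in OLs only, at 6.86 and 8.12 FPKM, Aqp4 was not listed, and Slc1a3 was lower in OLs, at 223.5, 179.3 and 200.2 FPKM in OPCs and 95.5 and 154.6 in OLs (adjusted p = 0.0396). Of 3 neuronal markers, Rbfox3 and Snap25 were not listed, and Tubb3 was at 17.4, 13.2 and 17.3 FPKM in OPCs and 24.6 and 24.5 in OLs, which do not overlap (adjusted p = 0.0789). None of 3 microglial markers was listed. The part of other cells in the members' values was not tested, and in such bulk samples fewer cells of a type cannot be told apart from less RNA per cell.

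Whether the members differed in level between the cell types was asked of labelled RNA at 0 h. Urm1 was higher in OLs, whereas the Elongator subunits Elp3 and Elp6, the regulator Kti12 and the thiolase subunit Ctu2 were lower. The other 4 members listed for both cell types did not pass the test. In the limma fit on log2(FPKM + 1) over all transcripts, 5 of 9 members passed an adjusted p of 0.05, 1 higher and 4 lower, where 31.6% of the 8177 transcripts tested passed (1155 higher and 1431 lower). The median log2 difference was -0.51 over the members and -0.01 over all transcripts. The OL and OPC replicates did not overlap for 8 of 9 members, where 59.3% of all transcripts did not overlap. The members were chosen with earlier results of these data known, so these counts are not independent evidence.

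Urm1 stood at 22.6, 19.6 and 19.8 FPKM in OPC replicates 1, 2 and 3 and at 154.8 and 95.0 FPKM in OL replicates 1 and 2. Both OL replicates lay far above all OPC replicates, although they differed from each other by more than the whole range of the OPC values. The means were 20.7 ± 1.67 FPKM in OPCs (SD, n = 3) and 124.9 ± 42.3 FPKM in OLs (SD, n = 2), a ratio of 6.05. The log2 difference was 2.50 ± 0.23 (SE, adjusted p = 8.56e-05), which lay at percentile 98.6 of all transcripts, and it passed under all 10 alternatives tried. Within its library Urm1 was at percentile 51.1 to 57.8 of all listed transcripts in OPCs and at 93.3 and 96.0 in OLs. Its last exon holds 1900 of the transcript's bases (86.5%). The microRNA genes Mir219a-2 on the reverse strand and Mir219b on the forward strand lie 628 and 644 bases beyond the transcript's end. They are not among the coding transcripts measured, and their part in the Urm1 value was not tested. The protein-coding gene on the other side, Slc27a4, was listed at 36.8, 30.2 and 32.3 FPKM in OPCs and at 64.0 and 44.2 in OLs.

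**Figure D1:**
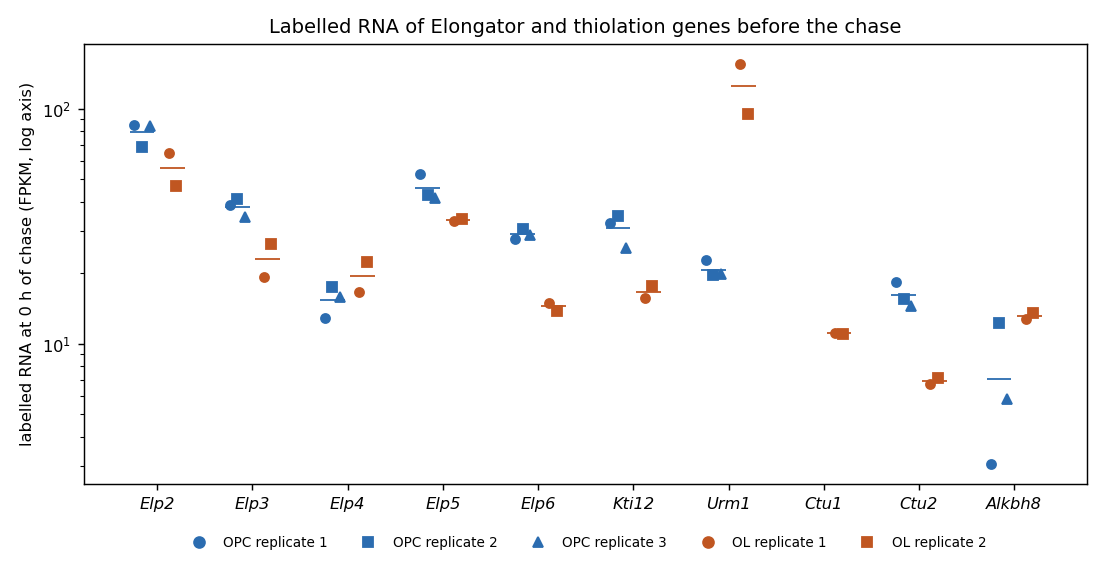
Labelled RNA at 0 h of chase in FPKM (log axis) for the 10 members, with 1 point per replicate and a short line at the mean of OPCs (blue) or OLs (orange). Urm1 lies between 19.6 and 22.6 FPKM in OPCs and at 95.0 and 154.8 FPKM in OLs, whereas both OL points of Elp3, Elp6, Kti12 and Ctu2 lie below their 3 OPC points.

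Among the subunits of Elongator, Elp6 had the lowest ratio. It was listed at 27.8, 30.6 and 29.0 FPKM in OPCs and at 14.96 and 13.82 in OLs, with no overlap, a log2 difference of -0.97 ± 0.21 (SE, adjusted p = 0.00797). Elp6 is one of the RecA-like subunits of the accessory ring. The catalytic subunit Elp3 was at 38.8, 41.2 and 34.7 FPKM in OPCs and at 19.2 and 26.6 in OLs (-0.73 ± 0.22, adjusted p = 0.0306). The Elp3 call was lost without OPC replicate 2 or 3 (adjusted p = 0.0522 and 0.0810) and with the replicate number as a block (0.0506), so it rests on few libraries. Without OL replicate 1 the estimate of Elp3 was -0.50.

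The remaining subunits did not pass. Elp2, the most abundant member in OPCs, was at 85.2, 68.8 and 83.9 FPKM there and at 64.7 and 47.0 in OLs, which do not overlap (-0.51 ± 0.20, adjusted p = 0.0840, and 0.0469 without OPC replicate 2). Elp5, a ring subunit, was at 52.9, 43.0 and 41.6 FPKM in OPCs and at 33.4 and 34.0 in OLs (-0.42 ± 0.19, adjusted p = 0.124). Elp4, the third ring subunit, was at 12.8, 17.4 and 15.9 FPKM in OPCs and at 16.5 and 22.3 in OLs, and the groups overlapped (0.31 ± 0.26, 95% interval -0.27 to 0.89). Of the 3 ring subunits, Elp6 alone passed, and the interval of Elp4 covers changes in either direction. The Elongator regulator Kti12, whose transcript has 1 exon, was at 32.7, 34.9 and 25.5 FPKM in OPCs and at 15.7 and 17.6 in OLs (-0.85 ± 0.23, adjusted p = 0.0199).

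In the thiolation branch Ctu2 moved opposite to Urm1. Ctu2 was at 18.3, 15.5 and 14.4 FPKM in OPCs and at 6.73 and 7.15 in OLs, less than in any OPC replicate, with a log2 difference of -1.10 ± 0.26 (SE, adjusted p = 0.0113). Its catalytic partner Ctu1 was listed at 11.11 and 11.03 FPKM in OLs and was not listed for OPCs, so no ratio is given. The authors removed transcripts under 1 FPKM at 0 h and those at 0 at 1 and 2 h, and which of these held for Ctu1 is not known. Alkbh8 was at 3.07, 12.2 and 5.82 FPKM in OPCs and at 12.8 and 13.5 in OLs. The OPC replicates of Alkbh8 differed by more than the cell types did (0.98 ± 0.44, adjusted p = 0.120), and the difference passed without OPC replicate 2 (1.42, adjusted p = 0.0137).

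Without 1 OL replicate the remaining one is assumed to vary as the OPC replicates do. Leaving out 1 OL replicate left 2 of 9 members past the threshold, Urm1 and either Elp6 (without OL replicate 1) or Elp3 (without OL replicate 2), where 14.5% and 17.9% of all transcripts then passed. Without OL replicate 1 or 2 the adjusted p was 0.0770 and 0.0560 for Ctu2, and 0.127 and 0.0717 for Kti12, and it was 0.0551 for Elp6 without OL replicate 2. Their estimates kept their sign in all 10 alternatives, between -1.19 and -1.01 for Ctu2, -1.02 and -0.92 for Elp6 and -0.98 and -0.76 for Kti12.

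The order of the members by 0 h level also differed. In OPCs the means ran from Elp2 (79.3 ± 9.12 FPKM, SD, n = 3) through Elp5 (45.8 ± 6.17), Elp3 (38.2 ± 3.30), Kti12 (31.05 ± 4.95), Elp6 (29.2 ± 1.41), Urm1 (20.7 ± 1.67), Ctu2 (16.1 ± 2.01) and Elp4 (15.4 ± 2.34) to Alkbh8 (7.04 ± 4.71). Of neighbours in this order, Elp3 and Kti12, Kti12 and Elp6, and Ctu2 and Elp4 overlapped in their replicates. In OLs Urm1 came first (124.9 ± 42.3 FPKM, SD, n = 2), ahead of Elp2 (55.8 ± 12.5) and Elp5 (33.7 ± 0.468), and Ctu2 came last (6.94 ± 0.294), below Ctu1 (11.1 ± 0.0562) and Alkbh8 (13.1 ± 0.512).

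Genes that work next to the members were followed as a list of 5 partners. They were the electron donor Dph3, the Urm1-activating enzyme Mocs3, the cysteine desulfurase Nfs1 with its partner Lyrm4, and the Alkbh8 partner Trmt112. At 0 h 0 of 5 partners passed the limma test, with and without a mean-variance trend, and 1 of 5 had an unadjusted p under 0.05. This was Trmt112, at 38.96, 36.2 and 28.8 FPKM in OPCs and at 22.9 and 20.9 in OLs (-0.63 ± 0.22, adjusted p = 0.0519). Of 3 genes that modify the wobble uridine of mitochondrial tRNAs (Trmu, Mto1 and Gtpbp3), Gtpbp3 was lower in OLs, at 24.8, 16.3 and 17.3 FPKM in OPCs and 9.13 and 9.64 in OLs (-0.96 ± 0.27, adjusted p = 0.0249).

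The decline of labelled RNA over the chase was described by the slope of log2(FPKM + 1) over time. FPKM values of the chase had been scaled by the authors to labelled spike-in RNA, and each library's scale is shared by all of its transcripts. In OPCs 9 of 9 members fell, where 81.7% of 8530 transcripts fell, and in OLs 8 of 10 fell, where 65.1% of 9751 did. In OPCs Elp4 did not pass without OPC replicate 2 (adjusted p = 0.0570). Without the 6 h libraries, an alternative chosen after seeing the data, 7 of 9 members passed in OPCs, not Elp4 (0.145) and Elp5 (0.0789), and 4 of 10 in OLs, where 70.0% and 40.2% of all transcripts passed. Without OL replicate 2 the calls of Elp2 and Elp4 in OLs were lost (0.0550 and 0.0553) and Ctu2 passed (0.0124). With all libraries, the exceptions in OLs were Ctu2 (-0.15 ± 0.08 log2 units per h, adjusted p = 0.0945) and Elp5 (-0.08 ± 0.05, adjusted p = 0.121). The median slope over all transcripts was -0.38 log2 units per h in OPCs and -0.20 in OLs. Relative to each library's median, 3 of 9 members fell faster in OPCs (Elp6, Kti12 and Ctu2), where 13.3% of all transcripts did, and 2 fell slower (Elp4 and Elp5), where 38.9% did. On the same scale 2 of 10 members fell faster in OLs (Alkbh8 and Ctu1), where 10.5% of all transcripts did, and 1 fell slower (Elp5), where 27.5% did.

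Elp6 declined most steeply in OPCs, at -0.83 ± 0.06 log2 units per h, steeper than all but 0.610% of transcripts. Since Elp6 was at 0 at 6 h, this slope depends on the pseudocount, and with 0.1 it was -1.33. The slope of Ctu2 in OPCs likewise went from -0.61 to -0.98. Elp6 stood at 22.4%, 3.18% and 12.9% of its 0 h level at 4 h in OPCs. At 6 h it was listed at 0 in all 3 OPC replicates, against 26.8% and 26.5% in the OL replicates. Elp6 was the one member with no labelled RNA listed in any OPC replicate at 6 h. An exact 0 in these tables can also be a failed estimate: at 6 h 15.7%, 21.6% and 16.4% of all transcripts were at 0 in OPC replicates 1 to 3, and 4.08% and 0.790% in OLs. Of 27 member values in OPCs at 6 h, 6 were at 0, and of 20 in OLs none was.

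Kti12 fell early in both cell types. It was at 36.9%, 12.2% and 21.4% of its 0 h level at 2 h in OPCs and at 33.0% and 15.7% in OLs, and at 6 h at 4.96%, 2.18% and 8.52% in OPCs and 17.0% and 14.3% in OLs. Ctu1 was at 16.8% and 17.9% in OLs at 2 h, although the replicates differed widely at 1 h, with 26.0% and 99.6%. The level at 6 h did not overlap between cell types for Kti12, with both OL replicates above all OPC replicates. Over transcripts listed for both cell types, the median at 6 h was 14.8%, 11.3% and 18.1% in OPCs and 33.0% and 39.4% in OLs. These medians did not overlap either, and Kti12 lay below them in both OL replicates.

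Elp5 kept most of its labelled RNA up to 4 h, when it was at 61.5%, 70.6% and 74.0% of its 0 h level in OPCs and at 104.8% and 81.1% in OLs. At 6 h Elp5 was at 17.8%, 48.3% and 17.6% in OPCs and at 48.7% and 71.6% in OLs, where the lower OL replicate lay just above the highest OPC replicate. Elp2 was at 55.9%, 60.9% and 60.2% in OPCs and at 76.3% and 82.4% in OLs at 4 h, and at 6 h it was at 0, 21.0% and 11.8% in OPCs and at 35.5% and 51.1% in OLs. The value of 0 followed 47.6 FPKM at 4 h in the same replicate. Urm1 was at 25.8%, 26.8% and 32.3% in OPCs at 4 h and at 67.6% and 60.2% in OLs, with no overlap. The median over shared transcripts did not overlap at 4 h either, at 39.6%, 21.2% and 37.8% in OPCs and 59.2% and 58.6% in OLs. At 6 h OPC replicate 1 of Urm1 (30.5%) came close to OL replicate 1 (31.8%).

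**Figure D2:**
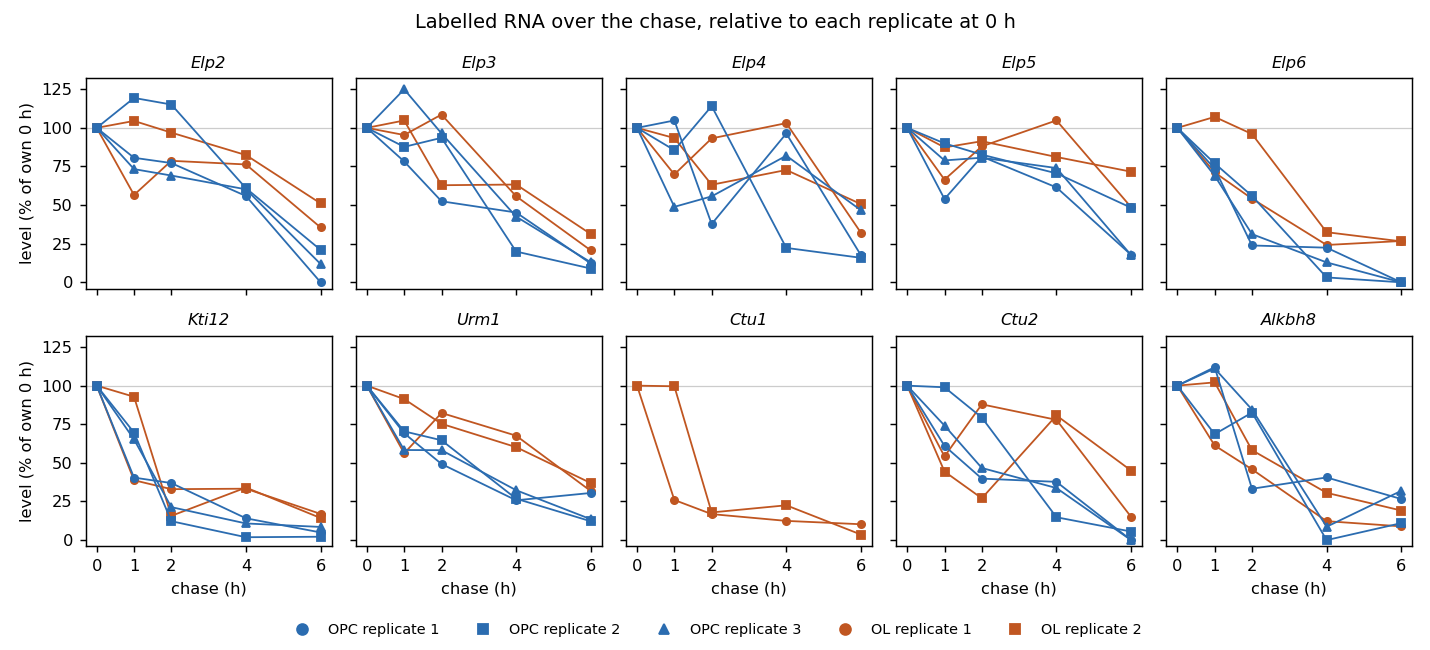
Labelled RNA in percent of each replicate's own 0 h level (vertical axis) against hours of chase (horizontal axis), 1 panel per member and 1 line per replicate, with OPCs in blue and OLs in orange. Elp6 is at 0 in the 3 OPC replicates at 6 h and near 26.5% in the OL replicates, and Ctu2 in OL replicate 2 drops to 27.1% at 2 h and is back at 80.7% at 4 h.

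Whether the decline itself differed between cell types was tested as the difference of the slopes. It passed for 4 of 9 members, all slower in OLs, where 27.8% of 8177 transcripts passed (2252 slower and 19 faster in OLs). These were Elp6 (0.51 ± 0.09 log2 units per h, SE, adjusted p = 0.000349), Ctu2 (0.46 ± 0.10, adjusted p = 0.00205), Elp2 (0.43 ± 0.14, adjusted p = 0.0273) and Kti12 (0.31 ± 0.11, adjusted p = 0.0434). With a pseudocount of 0.1 the estimates of Elp6 and Ctu2, with OPC values at 0 at 6 h, were 0.97 and 0.78, and Elp2 did not pass (0.59, adjusted p = 0.0654). Without OPC replicate 1, which holds the value of 0 of Elp2 at 6 h, the estimate of Elp2 was 0.24 (adjusted p = 0.0233). The median difference was 0.20 over the members and 0.14 over all transcripts. The slope of Urm1 differed by 0.15 ± 0.07 (95% interval 0.00397 to 0.29, adjusted p = 0.113), close to that median. Alkbh8 was the one member with a lower estimate in OLs, -0.06 ± 0.12 (95% interval -0.31 to 0.19).

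The calls on the slope differences depended on the last time point and on the shared scale. Without the 6 h libraries 0 of 9 members passed in limma, 4 of 9 had an unadjusted p under 0.05 and 1206 of all transcripts (14.7%) passed. The estimates were then 0.33 for Elp6 (adjusted p = 0.103), 0.40 for Ctu2 (0.0569), 0.48 for Kti12 (0.0635) and 0.13 for Elp2 (0.282). Elp2 thus had a much smaller estimate, whereas that of Ctu2 was close to its value with all time points and that of Kti12 was larger. With each library centred on its median, 1 member passed, Elp6 (0.30), and the calls over all transcripts turned from mostly slower to mostly faster in OLs (247 and 1523). Without OL replicate 1 Elp6 and Ctu2 passed, and without OL replicate 2 Elp6 passed. Kti12 also lost its call without OPC replicate 1 or 2 (adjusted p = 0.0507 and 0.146), and Urm1 passed without OPC replicate 1 (0.0438). The main fit treats the libraries of a replicate as independent. With the replicate number as a block 6 of 9 members passed, where 30.2% of all transcripts did, and Elp3 and Elp5 were gained.

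**Figure D3:**
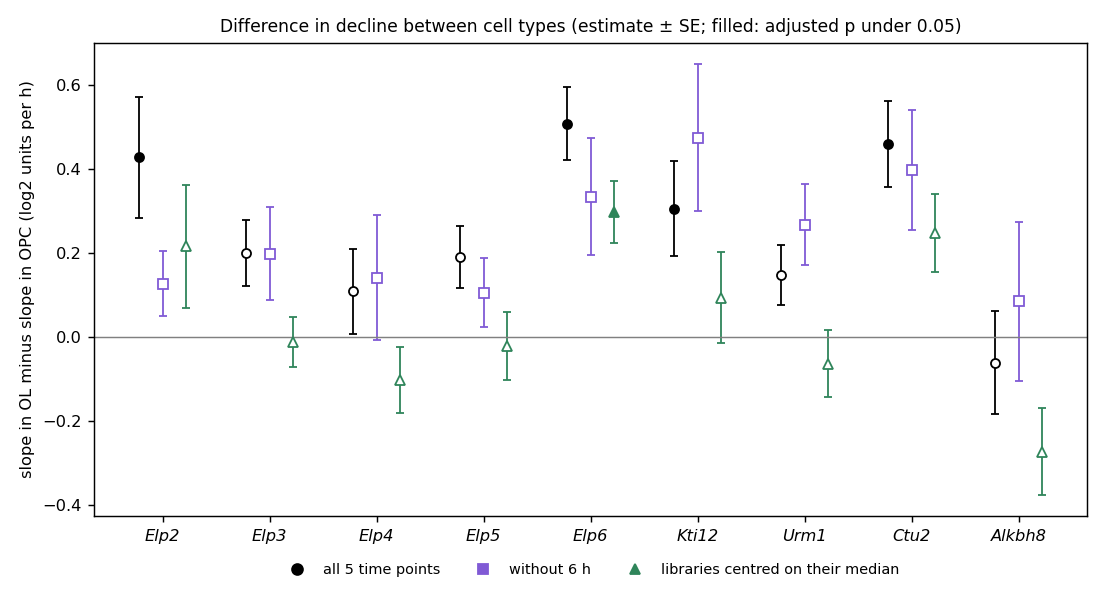
Difference of the slopes, OL minus OPC, in log2 units per h (vertical axis) for the 9 members listed in both cell types, as estimate ± SE with all 5 time points (black), without 6 h (purple) and with libraries centred on their median (green). Filled symbols have an adjusted p under 0.05, which holds for Elp2, Elp6, Kti12 and Ctu2 with all time points, for none without 6 h and for Elp6 alone after centring.

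Deposited half-lives came from the authors' fit of an exponential decay to each replicate, with longer estimates set to a ceiling of 6 h. With limma on log2 half-life, none of 8112 transcripts passed (0% called) and so 0 of 9 members did, whereas 1898 transcripts and 2 members, Ctu2 and Urm1, had an unadjusted p under 0.05. Without the mean-variance trend in limma, an alternative chosen after seeing the data, 287 transcripts passed, and Ctu2 and Urm1 were among them. OL and OPC half-lives did not overlap for 6 of 9 members, all longer in OLs, where 37.9% of all transcripts did not overlap. Of these 6, Elp2 and Urm1 alone stayed apart in refits without 6 h. After rescaling all libraries to 1 mean decay curve, Elp6 and Urm1 alone did, and Alkbh8 came apart with shorter values in OLs. The share of all transcripts that stayed apart in these refits was not determined. The median log2 difference was 0.65 over the members and 0.37 over all transcripts.

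Ctu2 had half-lives of 1.51, 1.96 and 1.86 h in OPC replicates 1 to 3 and of 6.00 h (the ceiling) and 5.21 h in OL replicates 1 and 2. The groups stood well apart, with a log2 difference of 1.67 ± 0.23 (SE, adjusted p = 0.0972, and 0.0396 without the trend). The decay in OLs was not a smooth one: OL replicate 2 was at 44.4%, 27.1%, 80.7% and 45.0% of its 0 h level at 1, 2, 4 and 6 h. A refit without 6 h gave 1.06 h for that replicate and 5.66 h for OPC replicate 2, and the difference turned to -0.10 ± 1.01. After rescaling all libraries to 1 mean decay curve the refitted half-life of OL replicate 2 was 1.13 h. The level behind these values in OLs was at most 7.15 FPKM. The annotation places 1395 exonic bases of Ctu2 (45.5% of its transcript, chr8:122476143-122483092, forward strand) opposite exons of Piezo1, and 835 of Kti12 (51.3%, chr4:108847785-108849413, forward strand) opposite exons of A730015C16Rik. Neither of these genes was listed in the tables. The mapping and quantification commands of the study set no strand option, so reads of such pairs cannot be told apart.

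Urm1 had half-lives of 2.05, 2.11 and 2.45 h in OPCs and of 6.00 h (the ceiling) and 4.89 h in OLs. Its groups did not overlap either, and the log2 difference was 1.303 ± 0.271 (SE, adjusted p = 0.108, and 0.0467 without the trend). A refit without 6 h left it at 1.96, 2.11 and 2.45 h in OPCs and at 6.00 and 5.46 h in OLs. After rescaling to the mean decay curve it was 3.01, 3.01 and 2.43 h in OPCs and 3.94 and 3.42 h in OLs. The groups still did not overlap, but the log2 difference of Urm1 was then 0.39, the lowest of its 12 alternatives. On that scale 0 of 9 members passed, where 2.33% of all transcripts did.

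Half-lives of the other members that were listed in both cell types did not pass under either version of limma. Elp4 was at 2.39, 2.26 and 5.45 h in OPCs and at the ceiling in both OL replicates. Refits of Elp4 without 6 h gave 6.00, 4.44 and 2.37 h in OPCs, with both OL replicates at the ceiling. After rescaling to the mean decay curve it was at 3.24, 3.72 and 6.00 h in OPCs and at 6.00 and 3.66 h in OLs. Elp3 was at 2.15, 1.96 and 3.24 h in OPCs and at 4.74 and 3.58 h in OLs, and Elp6 was at 1.86, 1.96 and 1.35 h in OPCs and at 2.26 and 3.13 h in OLs. Elp2 was at 4.76, 5.59 and 3.76 h in OPCs and at 5.78 h and the ceiling in OLs. Elp5 was at 5.69 h in OPC replicate 1 and at the ceiling in the other 4 replicates, where no longer half-life can appear. Kti12 and Ctu1 were short-lived wherever they were listed, with 1.39, 0.760 and 1.24 h for Kti12 in OPCs, 1.25 and 2.14 h in OLs, and 0.514 and 1.86 h for Ctu1 in OLs. Alkbh8 was at 3.07, 1.84 and 3.64 h in OPCs and at 1.41 and 2.52 h in OLs, the one member with a lower mean in OLs (-0.54 ± 0.44, 95% interval -1.76 to 0.68).

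**Figure D4:**
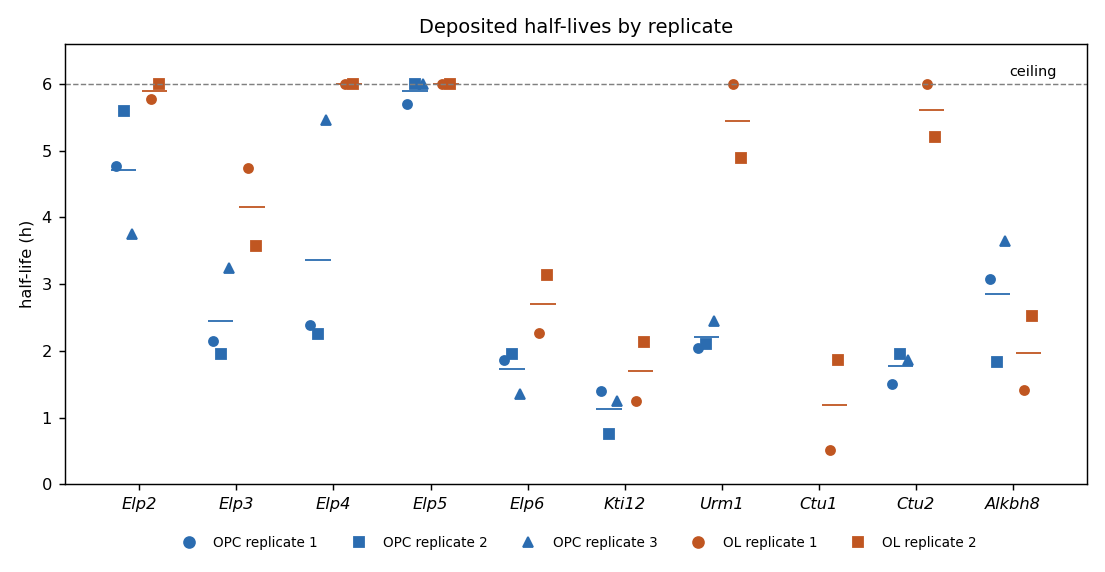
Deposited half-life in hours for the 10 members, with 1 point per replicate, a short line at the mean of OPCs (blue) or OLs (orange) and a dashed line at the 6 h ceiling. The OL points of Urm1 (6.00 and 4.89 h) and Ctu2 (6.00 and 5.21 h) lie above all of their OPC points, and those of Kti12 and Alkbh8 overlap with OPCs.

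Some of these half-lives are not specific to a transcript. In OPC replicate 2 2174 of 8491 deposited half-lives (25.6%) lay within 0.001 h of 1.957 h, among them those of Elp3, Elp6 and Ctu2. The value of 1.858 h for Ctu2 in OPC replicate 3 was shared by 72 transcripts, that of Ctu1 in OL replicate 2 by 112, and that of Kti12 in OPC replicate 2, 0.760 h, by 72. At the ceiling were 24.3% to 31.1% of transcripts in OPCs and 39.7% and 36.1% in OLs.

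The median half-life over all transcripts was 2.05 to 2.79 h in OPCs and 4.15 and 4.05 h in OLs, so the members were also placed by rank within each replicate, over all transcripts with a half-life in that cell type. Ctu2 was at percentile 27.2, 34.6 and 25.2 in OPCs and at 80.1 and 59.2 in OLs. Urm1 was at 45.1, 51.3 and 45.0 in OPCs and at 80.1 and 57.3 in OLs, and Elp4 at 51.1, 54.0 and 67.3 in OPCs and at 80.1 and 82.0 in OLs. The ranks of these 3 of 9 members did not overlap between the cell types and were higher in OLs, where 46.1% of all transcripts did not overlap in rank and 18.1% were higher in OLs without overlap. The OL ranks of 80.1 and 82.0 are shared by the 3852 and 3501 transcripts within 0.001 h of the ceiling. Both OL ranks of Elp4 are such ties, and 2174 transcripts share the rank of 34.6 of Ctu2. Elp3, Elp6 and Elp2, whose half-lives in hours did not overlap, overlapped in rank, with mean differences of 3.70, 3.73 and 2.61 percentile points. Alkbh8 had a mean rank of 45.8 in OPCs and 20.0 in OLs, with overlap. After centring each replicate on its median log2 half-life, Alkbh8 was shorter in OLs relative to the median transcript (-1.44 ± 0.43, adjusted p = 0.00571), where 33.3% of all transcripts passed. Of these calls 75 were longer and 2627 shorter in OLs, and the median difference over all transcripts was -0.53. Without centring the limma fit gave Alkbh8 an adjusted p of 0.562. The centred value of Elp5 is not read, since 4 of its 5 half-lives were at the ceiling.

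Among the partners 1 of 5 declined more slowly in OLs by the slope test, Lyrm4 (0.52 ± 0.12 log2 units per h, adjusted p = 0.00322), and Mto1 did so among the 3 mitochondrial genes (0.36 ± 0.13, adjusted p = 0.0350). Mocs3, which activates Urm1, was short-lived in OPCs at 0.619, 0.760 and 0.803 h and was at 1.19 and 2.46 h in OLs. Half-lives of Nfs1 were at the ceiling in all 5 replicates.

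The transcripts whose pattern was most like that of Urm1 were sought over the 25 libraries and 8177 transcripts on log2(FPKM + 1), after subtraction of each library's median. They were Mbp (Pearson's r = 0.979), Ppp1r16b (0.977) and Slc1a1 (0.975). Libraries of a replicate and of a cell type are not independent, so these coefficients describe the likeness and carry no test. Each coefficient also holds the difference in level between the cell types, so it does not show a like decline. In OLs the slope of Mbp was 0.18 ± 0.10 log2 units per h (SE) and that of Urm1 was -0.22 ± 0.05. At 0 h Mbp was at 3.99, 1.19 and 2.28 FPKM in OPCs.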

How the data were processed

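Per the submitters' processing notes and the study's methods, reads were clipped of adapters (fastx_clipper), mapped to GRCm38 with HISAT2 (2.1.0) and quantified as FPKM with StringTie (1.3.5) and ballgown over GENCODE vM9 canonical coding transcripts. To these deposited FPKM values the authors had applied, at every time point per the study's methods, a scale from labelled spike-in RNA. The deposited half-lives, in hours on a linear scale, came from the authors' least absolute deviations fit. Refits here lay within 0.01 h of 98.2% to 99.9% of them, and values just above the ceiling were set to 6 h. Read depth is unknown, since FPKM gives no counts.

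The members and lists were chosen with earlier results of these data known. Another pair of genes meant for the partner and marker lists is not reported here. All members, the remaining partner and mitochondrial lists and the 3 transcripts most like Urm1 are named, and Slc27a4 was added after its values were seen. Groups were taken from each label's cell type, replicate number and chase time. Levels, slopes and log2 half-lives were fitted with limma 3.58.1 (R 4.3.3, mean-variance trend, Benjamini-Hochberg adjustment over all transcripts, threshold 0.05, pseudocount 1). FPKM tests use log2(FPKM + 1), which understates changes of low transcripts. Intervals are 95% intervals of these fits. The fit was tested on simulated data. The study calls the replicates biological, and no pair of them shared over 0.0117% of its values. The OLs match a pair of the OPC replicates, but the labels do not say which numbers correspond. Over the chase libraries of 1 OPC replicate the mean correlation of deviations was 0.27, 0.18 and 0.11, and over those of the OL replicates it was 0.41 for each. Annotation and coding sequences came from GENCODE M21 (GRCm38), matched by transcript identifier.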

Additional observations from a re-analysis of the deposited data

Results flagged for a closer look

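The slope of labelled RNA over the chase differed between OLs and OPCs by the test of the difference itself for Elp6 (0.51 log2 units per h), Ctu2 (0.46), Elp2 (0.43) and Kti12 (0.31), each less steep in OLs. For Elp6, Ctu2 and Elp2 the OPC values include libraries listed at 0 at 6 h (3, 2 and 1 of 3). With 3 and 2 replicates, groups were too small to look for single outlying samples.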

How the results depend on the processing

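Of 458 values of single genes under an alternative, 385 kept their direction and their side of the threshold, 38 lost a call, 11 gained one and 24 changed sign, of which 18 after centring on the median. Centring takes a shared slope or level from every transcript, so these signs say only on which side of the median a member lay. Of 50 counts of members, 39 stayed within 1.5 times. For values that changed, the cause was not tested, unless the alternative itself leaves out samples.

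Centring each library on its median moved the transcripts called to 4458 in OPCs and 3709 in OLs for the decline, and the members called to 5 and 3. In OPCs the slopes turned to 0.081 for Alkbh8, 0.17 for Elp4, 0.16 for Elp5 and 0.071 for Urm1. In OLs they turned to 0.085 for Ctu2, 0.070 for Elp2, 0.076 for Elp4, 0.15 for Elp5 and 0.015 for Urm1. For the difference of slopes centring left 1 member, with -0.012 for Elp3, -0.10 for Elp4, -0.022 for Elp5 and -0.064 for Urm1. Centred half-lives gave 2702 transcripts (33.3%, 75 longer and 2627 shorter in OLs) and 2 members (Alkbh8 and Elp5). Their values turned to -0.56 for Elp2, -0.12 for Elp3, -0.26 for Elp6 and -0.33 for Kti12. The value of -0.88 for Elp5 comes from half-lives at the ceiling and is not read as a difference. Half-lives rescaled to the mean decay curve gave 189 transcripts, with -0.050 for Elp3 and -0.048 for Elp5, and refits without 6 h gave -0.10 for Ctu2. A pseudocount of 0.1 turned the slope difference of Alkbh8 to 0.013 and ended the call of Elp2.

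After seeing the data, 2 alternatives were added. Without the 6 h libraries the decline in OLs gave 3924 transcripts and 4 members, and the difference of slopes gave 1206 transcripts and 0 members, with 0.085 for Alkbh8. Limma without the mean-variance trend gave 287 transcripts and 2 members for half-lives.

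Leaving out 1 replicate at a time, where at 0 h and for half-lives a lone OL replicate is assumed to vary as OPCs do, gave 1183 to 2912 transcripts and 2 to 6 members at 0 h, 0 to 98 transcripts for half-lives, and 688 to 2401 transcripts and 1 to 5 members for the difference of slopes, where Alkbh8 ranged from -0.16 to 0.015. With the replicate number as a block 4 members and 27.6% of all transcripts passed at 0 h (Elp3 was lost, adjusted p = 0.0506), and 6 members and 30.2% in the difference of slopes (Elp3 and Elp5 were gained, adjusted p = 0.0491 and 0.0492), and no other call of a member changed. Whether these numbers pair OPC with OL samples is not known: at 0 h deviations of OPC and OL replicate 1 correlated at 0.06 and those of replicate 2 at 0.01. With 2 OL replicates the OL deviations mirror each other, so each OPC replicate has 1 value, of reversed sign for the other OL replicate. OPC replicate 3 correlated at 0.09 with OL replicate 2, and no pairing was read from these values.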
